A study of Mus musculus with 8 samples.

Results

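Meningeal cells were a rare population in a single-cell survey of the PVN, the paraventricular nucleus of the hypothalamus, whose neurons drive the hormonal response to stress. They are the 131 cells that carry the label Meningeal in the authors' deposited annotation, out of 35672 cells and 17 annotated types. The same 131 cells form 1 cluster of the finer annotation, so they have no subclusters. For comparison, 401 cells were annotated as Vascular and 229 as Macrophages.

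The meninges are the membranes that cover the brain, and their innermost layers follow the surface and the blood vessels that enter it. Their fibroblasts secrete collagens and small proteoglycans and form part of the barrier between the brain and the surrounding fluid. Macrophages live beside them along the same surfaces and vessels. Meningeal cells can enter a dissected brain region with the surface and the vessels taken along.

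The mice were C57BL/6 of both sexes, with 1 library for each sex and exposure in each cohort. In the baseline cohort, aged 10 weeks, control mice were unstressed and the others had 15 min of restraint, called acute restraint stress (ARS). In the cohort named CMS, aged 11 weeks, controls carry CMS in their titles but unstressed as their condition and are treated as unstressed, and the stressed mice had 21 days of chronic mild stress (CMS) before the same restraint. Tissue was taken 5 h after restraint from mice perfused with cold PBS, and the PVN was dissociated with papain, all per the labels. As no source used here gives the number of animals behind a library, p-values measure the spread between these 8 libraries, which may be technical. In the models of shares and of library medians this spread is in part pooled over types.

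Each cell comes with its number of UMIs (unique molecular identifiers, 1 per captured RNA molecule), its detected genes, its mitochondrial share, a doublet score and scores for the S and G2/M phases of the cell cycle. Libraries held 3523 to 5777 cells and 9924892 to 15760435 UMIs. Expression was not analysed here, and the label was not checked against Dcn, Lum and Col1a1, the extracellular matrix genes that mark meningeal fibroblasts, and it stands as the authors gave it. Cell barcodes were compared between libraries. Of 34942 distinct barcodes, 722 occurred in more than 1 library. These include the barcodes of 3 Meningeal cells, and in each case the other cell was of another type.

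Every library contained Meningeal cells, from 10 to 31 of them, and their share of all cells was 0.367% (95% Clopper-Pearson interval 0.307 to 0.436). At baseline, the female control library held 25 Meningeal cells or 0.450% (interval 0.291 to 0.663), the female ARS library 31 or 0.537% (0.365 to 0.761). The male control library held 15 or 0.406% (0.228 to 0.669), and the male ARS library 11 or 0.287% (0.143 to 0.513). In the CMS cohort the counts were lower, apart from the male ARS library. The female CMS control library held 12 or 0.265% (0.137 to 0.462), the female CMS ARS library 14 or 0.281% (0.154 to 0.471). The male CMS control library held 10 or 0.264% (0.127 to 0.486), and the male CMS ARS library 13 or 0.369% (0.197 to 0.630). With so few cells the intervals, which cover counting error only, overlap between all 8 libraries.

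**Figure D1:**
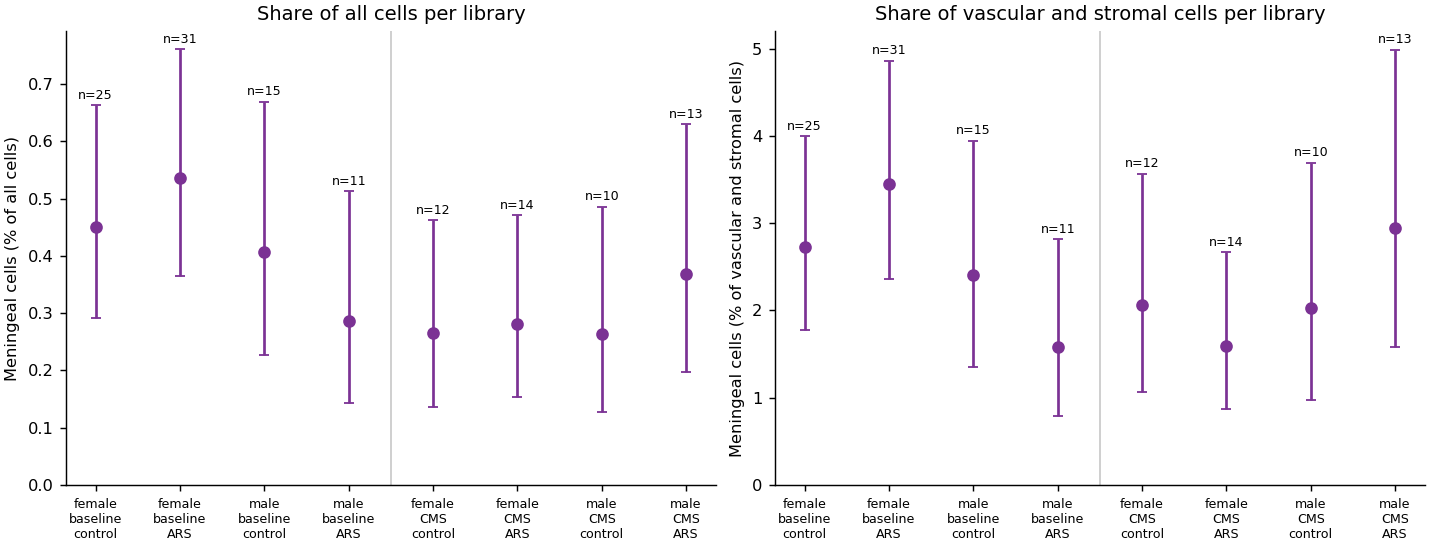
Meningeal cells as a percentage of all cells (left) and of vascular and stromal cells (right) in each of the 8 libraries. Points are shares, bars are exact 95% Clopper-Pearson intervals for counting error, n is the number of Meningeal cells, and the grey line divides the cohorts. Shares of all cells run from 0.264% to 0.537%, and the intervals of all libraries overlap.

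Summed by experiment, Meningeal cells made up 0.435% of baseline cells (82 of 18859, interval 0.346 to 0.539) and 0.291% of CMS cells (49 of 16813, 0.216 to 0.385). Summed by condition, they made up 0.381% of stressed cells (69 of 18112, 0.297 to 0.482) and 0.353% of control cells (62 of 17560, 0.271 to 0.452). The 4 combinations were 0.432% in baseline controls, 0.437% in baseline ARS, 0.265% in CMS controls and 0.317% in CMS ARS. The cohorts were thus farther apart than the exposures. These sums treat cells of several libraries as 1 pool, so the tests below use libraries.

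Stressed and control libraries were compared to see whether restraint was followed by a different share of Meningeal cells. The share was 0.368% ± 0.119 (SD, n = 4) in stressed and 0.346% ± 0.0959 in control libraries, with ratios of 1.19 and 1.06 in the female pairs and of 0.707 and 1.40 in the male pairs of the baseline and CMS cohorts. The fitted log2 fold was 0.10 (SE 0.33, 95% interval -0.55 to 0.75, edgeR adjusted p = 0.944), where edgeR called 0% of the 17 types (0 at an unadjusted p under 0.05, and 0 by DESeq2). The direction rests on single libraries: it was -0.07 without the female baseline ARS library and -0.05 without the male CMS ARS library.

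Female libraries had a Meningeal share of 0.383% ± 0.132 (SD, n = 4) and male libraries 0.332% ± 0.0670. The female library had the higher share in the baseline ARS pair (ratio 1.87, counting interval 0.941 to 3.71) and baseline control pair (1.11), about level in the CMS control pair (1.0), and lower in the CMS ARS pair (0.762). The log2 fold was 0.19 (SE 0.33, interval -0.47 to 0.85, edgeR adjusted p = 0.960; edgeR called 5.88% of the 17 types). Without the male baseline ARS library it turned to -0.06. Neither interaction was called. The sex by stress term was 0.19 (SE 0.70, interval -1.22 to 1.60, edgeR adjusted p = 0.889) and the cohort by stress term 0.31 (SE 0.72, interval -1.14 to 1.76, edgeR adjusted p = 0.918), and edgeR called 0% of types in each, with 2 and 1 at an unadjusted p under 0.05, and DESeq2 0. Both terms change sign with 1 library left out: sex by stress was -0.13 without the female baseline ARS and -0.39 without the male baseline ARS library, and cohort by stress -0.07 without the male baseline ARS library and -0.06 without the male CMS ARS one.

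The CMS cohort had a Meningeal share of 0.295% ± 0.050 (SD, n = 4) against 0.420% ± 0.104 at baseline. It was lower in the CMS library of 3 of the 4 matched pairs, with ratios of 0.589, 0.524 and 0.651, and higher for the male ARS pair (1.29). The ratio of 0.524, from the female ARS pair, had a counting interval of 0.279 to 0.983, not adjusted for the number of ratios. The intervals of the other pairs include 1. The log2 fold was -0.53 (SE 0.33, interval -1.19 to 0.13, edgeR adjusted p = 0.262), while edgeR called 17.6% of the 17 types between cohorts. Of these ratios, 0.589 (female) and 0.651 (male) are from the control pairs, in which the mice of both cohorts were unstressed. The CMS cohort is 1 week older, so age and cohort cannot be told apart. In the same fit the Vascular share was lower in the CMS cohort (log2 fold -0.95, edgeR adjusted p = 0.00443), and Macrophages had -0.18 (edgeR adjusted p = 0.641), or 0.01 by DESeq2. Whether the Meningeal fold differs from either was not tested.

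Vascular and Macrophage shares show whether the surface and vessel cells moved together. The Vascular share ran from 0.596% to 1.96% and the Macrophage share from 0.454% to 0.809% over libraries. Meningeal cells numbered 14.7 for every 100 Vascular cells in the male baseline ARS library, which has the highest Vascular share and a low Meningeal share, and 61.9 in the male CMS ARS library, which has the lowest Vascular share. In the other 6 libraries they numbered 25.9 to 43.7. For every 100 Macrophages there were 35.5 to 86.1 Meningeal cells. Across the 8 libraries Meningeal and Vascular shares had Pearson r = 0.231 (exact permutation p = 0.583) and Spearman rho = 0.476 (p = 0.243), and Meningeal and Macrophage shares r = -0.255 (exact permutation p = 0.537) and rho = -0.381 (p = 0.360). With Benjamini-Hochberg adjustment over these 2 relations, the exact p was 0.583 for each r and 0.360 for each rho. Without the male baseline ARS and male CMS ARS libraries, which are farthest from the median on each x axis, r was 0.793 with Vascular (exact permutation p = 0.0764, n = 6) and -0.173 with Macrophages (exact p = 0.794). In these 6 libraries, baseline ones had 1.23% to 1.40% Vascular and 0.406% to 0.537% Meningeal cells. CMS ones had 0.661% to 1.08% and 0.264% to 0.281%. The cohort difference and a joint change of the 2 types cannot be told apart in this r. Shares of 1 library also sum to a fixed whole, which ties them. A cohort holds 4 libraries, too few for a value of its own.

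Among the 5 vascular and stromal types together (Endothelial, Mixed_Endothelial, Pericytes, Vascular and Meningeal), Meningeal cells made up 2.37% (131 of 5530, interval 1.98 to 2.80). The highest values were 3.45% in the female baseline ARS library and 2.95% in the male CMS ARS library, and the lowest 1.58% in the male baseline ARS library. With this denominator the CMS cohort had 1.60% to 2.95% over its 4 libraries and the baseline cohort 1.58% to 3.45%, and the fitted log2 fold between cohorts was -0.36 (edgeR adjusted p = 0.306).

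Meningeal cells were of middling depth. Their median cell had 2372 UMIs (quartiles 1665 and 3016) and 1292 genes (1006 and 1573), which placed them 11th of 17 types by each measure, between Vascular and Endothelial cells. Their UMIs ran from 518 to 6481, and the highest number of genes was 2700. Genes followed UMIs closely across the 131 cells (Spearman 0.981, a description, since genes are counted from the same reads).

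**Figure D2:**
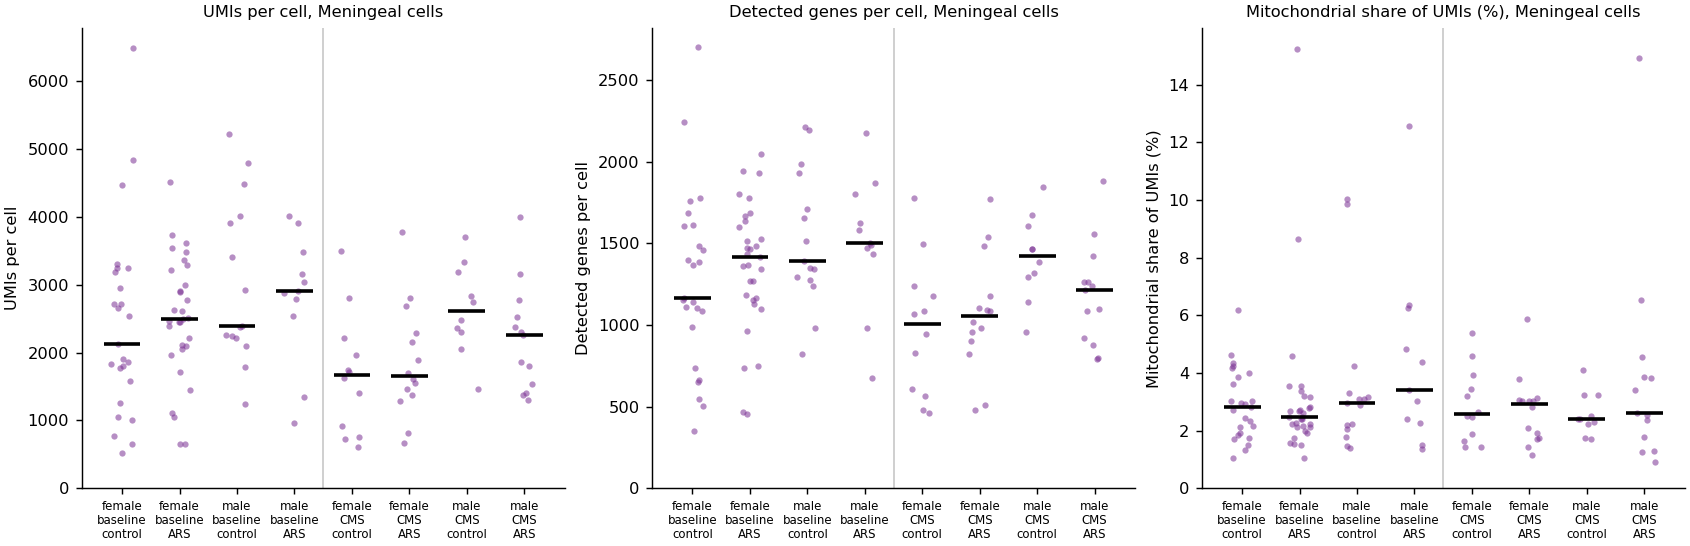
UMIs per cell (left), detected genes per cell (middle) and mitochondrial share of UMIs in percent (right) for each Meningeal cell, by library. Points are cells, black bars are library medians, and the grey line divides the cohorts. Median UMIs of the female CMS libraries, 1676 and 1654, lie below those of the other 6 libraries, 2125 to 2904.

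Median UMIs of the baseline libraries were 2125 (female control), 2494 (female ARS), 2395 (male control) and 2904 (male ARS). In the CMS cohort they were 1676 (female control), 1654 (female ARS), 2611 (male control) and 2261 (male ARS). The female CMS libraries were the lowest in UMIs and also in genes. Median genes were 1167, 1416, 1393 and 1502 at baseline and 1006, 1055, 1424 and 1213 in the CMS cohort, in the same order of libraries. The libraries themselves differed in depth: the median over all their cells was 1845 and 1878 UMIs in the female CMS libraries and 2051 to 2565 in the other 6.

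Between the sexes, genes per Meningeal cell were lower in female libraries, which is the 1 call that limma made among 16 types (6.25%). The female median was lower in all 4 pairs, and female and male libraries overlapped. The log2 difference was -0.26 (SE 0.08, interval -0.42 to -0.10, limma adjusted p = 0.0319), and it was -0.08 in Vascular cells and -0.08 in Macrophages (limma adjusted p = 0.488 for each). The difference in UMIs went the same way but missed the threshold (log2 difference -0.37, SE 0.11, limma adjusted p = 0.0541, where 0% of types were called and 1 had an unadjusted p under 0.05). It passed without the male baseline control library (-0.47, limma adjusted p = 0.00296) or the female baseline ARS library (-0.45, limma adjusted p = 0.0133). Once the genes expected from a cell's UMIs were taken out, female and male libraries had 1.06 ± 0.0148 (SD, n = 4) and 1.04 ± 0.0297 times the expected genes, a log2 difference of 0.03 with the opposite sign (SE 0.02, interval -0.01 to 0.07, limma adjusted p = 0.361; 0% of types called, 3 at an unadjusted p under 0.05).

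Pooled over libraries, shallow cells were more frequent among female than among male Meningeal cells. Of the 82 female Meningeal cells 11 had under 1000 UMIs (13.4%, interval 6.89 to 22.7), and of the 49 male cells 1 (2.04%, 0.0517 to 10.9). These intervals overlap, and 4 of the 11 female cells came from the 12 of the female CMS control library. The female and male shares were 25.6% and 14.0% in Macrophages, 2.58% and 2.98% in Vascular cells, and 18.2% and 15.5% over all cells. Without cells under 1000 UMIs the sex difference in genes was -0.15 (limma adjusted p = 0.349), and relative to the median of all cells of each library it was -0.16 (limma adjusted p = 0.305). The call was also lost without any of 5 libraries (male baseline ARS, female baseline control, the controls of both sexes in the CMS cohort and female CMS ARS), with values from -0.27 to -0.17.

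Between cohorts, genes per Meningeal cell were lower in CMS libraries, at 1174 ± 188 (SD, n = 4) against 1370 ± 143 (log2 difference -0.23, SE 0.08, interval -0.39 to -0.07, limma adjusted p = 0.0247). The cohorts overlapped, and limma called 25% of the 16 types in this comparison, so a call is common there. Macrophages were also lower in the CMS cohort (-0.30, limma adjusted p = 0.00349), while Vascular cells had -0.07 (limma adjusted p = 0.515). Relative to all cells of each library the Meningeal difference was -0.07 (limma adjusted p = 0.572), and it was -0.15 (limma adjusted p = 0.380) without the female baseline ARS library. The call was also lost without the male baseline ARS, female CMS control, female CMS ARS or male CMS ARS library (-0.24 to -0.18, limma adjusted p from 0.0598 to 0.196). UMIs per cell had -0.29 (SE 0.11, limma adjusted p = 0.0638, where 18.8% of types were called), and passed without the male baseline control (-0.39) or male CMS control library (-0.41). Genes beyond those expected from UMIs had -0.01 (SE 0.02, limma adjusted p = 0.844; 6.25% of types called), which turned to 0.01 without the male baseline ARS and to 0.02 without the male CMS ARS library.

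Restraint, alone or after chronic stress, was not followed by a called difference in the depth of Meningeal cells. Stressed minus control was 0.07 for log2 UMIs (SE 0.11, interval -0.16 to 0.30, limma adjusted p = 0.999), 0.06 for log2 genes (SE 0.08, interval -0.11 to 0.22, limma adjusted p = 0.887) and 0.02 for genes beyond those expected (SE 0.02, interval -0.02 to 0.06, limma adjusted p = 0.935). In each of these 3 measures limma called 0% of the 16 types, with 1, 0 and 0 at an unadjusted p under 0.05. The UMI difference turned to -0.02 without the male baseline control library and to -0.01 without the female baseline ARS library, and the gene difference to -0.02 without the latter or with cells under 1000 UMIs left out. Without the male baseline ARS library the value for genes beyond those expected was -0.00105.

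Within libraries, Meningeal cells were shallower than Vascular cells but gave more genes for their depth. Their median UMIs were lower than those of Vascular cells in all 8 libraries, with a mean log2 difference of -0.35 ± 0.21 (SD, n = 8; exact two-sided sign-flip permutation p = 0.00781, adjusted p = 0.0156 over the 10 comparisons between types; 0.00781 is the smallest p that 8 pairs allow). Against Macrophages the difference was 0.08 ± 0.30 (SD, n = 8), higher in 5 of 8 libraries (exact permutation p = 0.445, adjusted p = 0.445).

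Genes per cell stood closer to Vascular cells and above Macrophages. Meningeal minus Vascular was -0.13 ± 0.16 (SD, n = 8) on the log2 scale, higher in 2 of 8 libraries (exact permutation p = 0.0703, adjusted p = 0.0781). Meningeal minus Macrophages was 0.26 ± 0.21, higher in 7 of 8 libraries (exact permutation p = 0.0156, adjusted p = 0.0260), a call lost without the female CMS control, female CMS ARS or male CMS control library (adjusted exact p = 0.0521 each). Relative to the genes expected from UMIs, a curve fitted over all cells of a library, Meningeal cells had 1.01 to 1.08 times the expected number in the 8 libraries, Vascular cells 0.932 to 0.977 times and Macrophages 0.904 to 0.967 times. These ranges do not overlap. The log2 difference was 0.13 ± 0.03 from Vascular cells and 0.18 ± 0.04 from Macrophages, higher in 8 of 8 libraries for each (exact permutation p = 0.00781, adjusted p = 0.0156). This measure placed Meningeal cells 8th of the 17 types, so 7 types had a larger surplus. Among these 7 were Endothelial cells (1.07), Mixed_Endothelial cells (1.07) and Pericytes (1.08), against 1.05 in Meningeal cells with libraries pooled. Restricted to cells of 1500 to 3500 UMIs, the log2 differences from Vascular cells and Macrophages were 0.12 and 0.16. In that range genes per cell differed by -0.04 from Vascular cells (higher in 4 of 8 libraries, adjusted exact p = 0.344) and by 0.19 from Macrophages (8 of 8, adjusted exact p = 0.0104).

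**Figure D3:**
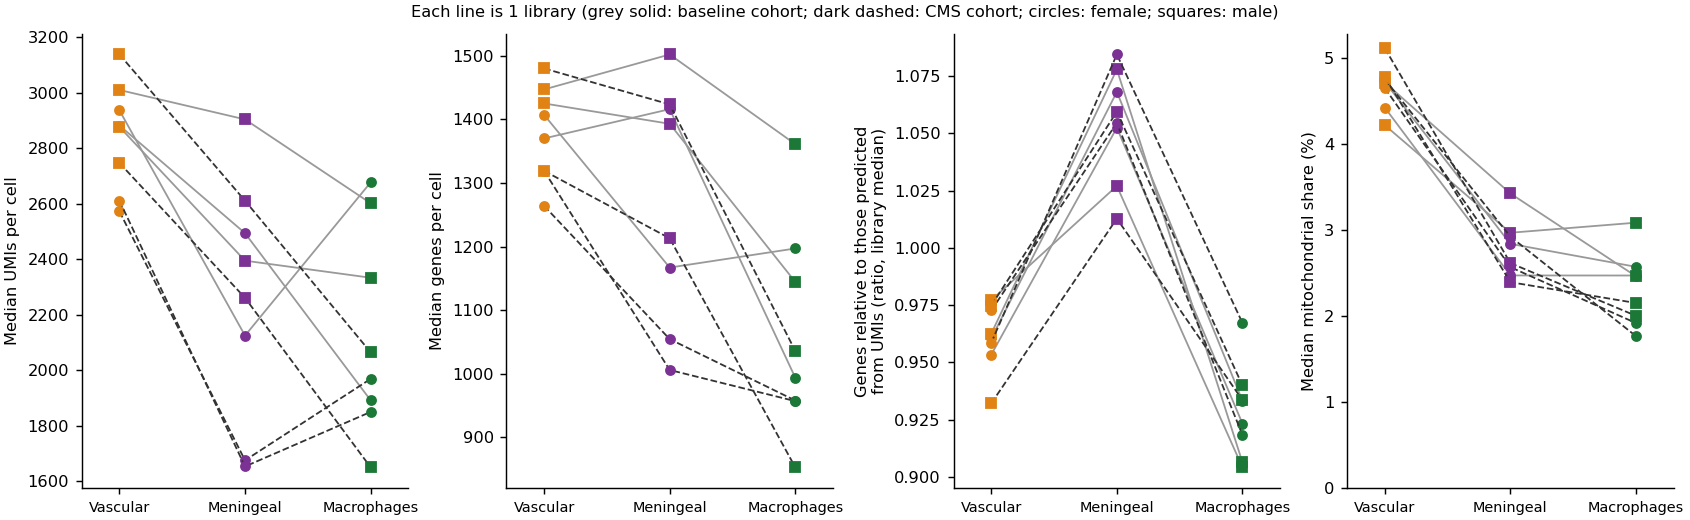
Library medians of UMIs per cell, genes per cell, genes relative to those predicted from UMIs (ratio) and mitochondrial share (percent) for Vascular cells, Meningeal cells and Macrophages. Each line is 1 library, grey solid for baseline and dark dashed for CMS, with circles for female and squares for male; only the mitochondrial axis starts at 0. All 8 lines fall from Vascular to Meningeal in UMIs and mitochondrial share, and all 8 peak at Meningeal in the ratio.

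The mitochondrial share of UMIs, which tends to be high in damaged or strongly respiring cells, was low in Meningeal cells. Their median was 2.64% (quartiles 1.96 and 3.44), 14th of 17 types, against 4.62% in Vascular cells, 2.27% in Macrophages and 4.49% over all cells. Endothelial cells (2.75%), Mixed_Endothelial cells (2.78%) and Pericytes (2.53%) had medians close to the Meningeal one. Of the 131 Meningeal cells 4 (3.05%) had more than 10%, against 17.6% of all cells, and the highest had 15.2%. Library medians were 2.84% (female control), 2.47% (female ARS), 2.97% (male control) and 3.43% (male ARS) at baseline, and 2.57%, 2.92%, 2.39% and 2.62% in the CMS cohort. The male baseline ARS library was the highest and the male CMS control library the lowest.

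Within libraries the Meningeal share was below the Vascular share in 8 of 8, by 1.90 percentage points on average (difference -1.90 ± 0.452, SD, n = 8; exact permutation p = 0.00781, adjusted p = 0.0156). It was above that of Macrophages in 7 of 8 libraries, by 0.472 ± 0.451 points (exact permutation p = 0.0234, adjusted p = 0.0335). The latter call was lost without any of 6 libraries (all but the female baseline ARS and male baseline control ones; adjusted exact p up to 0.0670), while in cells of 1500 to 3500 UMIs it held in 8 of 8 libraries (0.528 points, adjusted exact p = 0.0104). No comparison of conditions was called for Meningeal cells. Stressed minus control was 0.167 points (SE 0.232, limma adjusted p = 0.673), female minus male -0.150 (SE 0.232, limma adjusted p = 0.869) and CMS minus baseline -0.301 (SE 0.232, limma adjusted p = 0.310), where limma called 0%, 0% and 18.8% of the 16 types, with 1, 1 and 5 at an unadjusted p under 0.05. The first turned to -0.00374 without the male baseline ARS library. The second turned to 0.0813 without the female baseline ARS and to 0.0204 without the male baseline ARS library.

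Most Meningeal cells had a doublet score of 0. Such scores rate how much a cell resembles an artificial mix of 2 cells. For this one the tool was not given in the sources used here. A score of exactly 0 was given to 116 of the 131 Meningeal cells, 88.5% (interval 81.8 to 93.4), the highest of the 17 types. Macrophages followed with 70.7% (162 of 229, interval 64.4 to 76.5), Vascular cells had 24.7% (99 of 401, 20.5 to 29.2), and all cells together 27.1%.

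Zero scores predominated in every library. The Meningeal share of zeros was 84.0% (21 of 25 cells), 87.1% (27 of 31), 86.7% (13 of 15) and 72.7% (8 of 11) in the female control, female ARS, male control and male ARS libraries at baseline. In the CMS cohort it was 100% in the female control (12 cells), female ARS (14) and male control (10) libraries and 84.6% (11 of 13) in the male ARS library. Intervals are wide, from 39.0 to 94.0 in the male baseline ARS library. All cells of a library had zero scores in 20.6% to 29.8%.

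**Figure D4:**
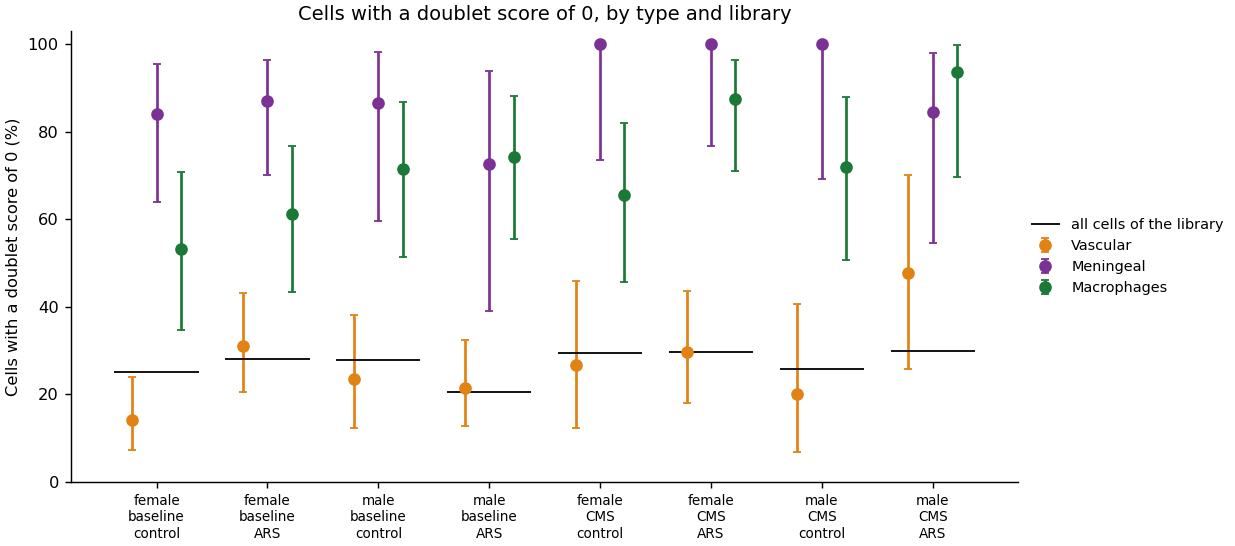
Cells with a doublet score of 0 as a percentage of Vascular cells, Meningeal cells and Macrophages in each library, with exact 95% Clopper-Pearson intervals for counting error; black lines give all cells of the library. Meningeal cells sit at 72.7% to 100%, above Vascular cells in all 8 libraries and above Macrophages in 6 of 8.

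Meningeal cells exceeded Vascular cells by 62.7 ± 13.9 percentage points (SD, n = 8), in 8 of 8 libraries (exact permutation p = 0.00781, adjusted p = 0.0156). They exceeded Macrophages by 17.1 ± 15.8 points, in 6 of 8 libraries (exact permutation p = 0.0313, adjusted p = 0.0391). The male ARS libraries of both cohorts were the exceptions. The difference from Macrophages is near the limit of the test: its adjusted exact p was 0.0536 in cells of 1500 to 3500 UMIs (20.1 points) and up to 0.0781 without any of 6 libraries (all but the male baseline ARS and male CMS ARS ones).

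Zeros were most frequent among shallow cells in all 3 types. Below 1500 UMIs, 28 of 28 Meningeal cells, 24 of 24 Vascular cells and 95.9% of Macrophages had a score of 0. From 1500 to under 2500 UMIs the share was 95.7% (44 of 46, interval 85.2 to 99.5) in Meningeal cells, 43.2% (32.2 to 54.7) in Vascular cells and 82.7% (72.2 to 90.4) in Macrophages. From 2500 to under 3500 UMIs it was 75% (30 of 40, 58.8 to 87.3), 15.1% (10.6 to 20.5) and 40.8% (27.0 to 55.8). At 3500 UMIs and above it was 82.4% (14 of 17, 56.6 to 96.2), 9.09% (3.73 to 17.8) and 29.0% (14.2 to 48.0). These intervals pool libraries and cover counting error only. Among all cells of 1500 to 3500 UMIs, Meningeal cells again had the highest share of zeros, 86.0% (74 of 86, interval 76.9 to 92.6) against 13.6% over all types. COP came next with 73.3% (11 of 15, 44.9 to 92.2, an overlapping interval), and then Macrophages with 66.1%.

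The 15 Meningeal cells with a score above 0 were somewhat deeper, with a median of 2884 UMIs and 1485 genes against 2252 UMIs and 1241 genes in the 116 others. Their mitochondrial medians were 2.95% and 2.62%. Their scores ran from 1.37 to 3.97 with a median of 2.07, against a median of 1.44 in scored Macrophages and 1.41 in scored Vascular cells. Of these cells, 13 came from the baseline cohort and 2 from the CMS cohort, both in the male ARS library. The 3 deepest Meningeal cells, with 4831 to 6481 UMIs, all had a score of 0.

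Between cohorts the share of zeros was higher in CMS libraries, 96.2% ± 7.69 (SD, n = 4) against 82.6% ± 6.74 at baseline, a difference of 13.5 points (SE 3.66, interval 5.39 to 21.7, limma adjusted p = 0.0219). It was higher in each of the 4 matched pairs of libraries, and the groups overlapped at the male CMS ARS library. The fit gave each library's percentage equal weight whatever its number of cells, and its SE was moderated by spread pooled over types. The other CMS libraries sit at the limit of 100%, where no spread between them can be seen. Counting error does not enter the fit as such, so the SE and interval may be too narrow. limma called 18.8% of the 16 types in this comparison, Macrophages among them (14.7 points, limma adjusted p = 0.0219), while Vascular cells had 8.52 points (limma adjusted p = 0.268). The CMS cohort also had fewer UMIs per Meningeal cell, 2050 ± 468 against 2480 ± 323 (SD, n = 4). The part of depth in the difference was not tested beyond leaving out cells under 1000 UMIs, which gave 15.0 points (limma adjusted p = 0.0319), and subtracting the share over all cells, which gave 10.2 (limma adjusted p = 0.0341). The call was lost without the female baseline control, male baseline ARS or female CMS ARS library (10.9, 11.9 and 11.7 points, limma adjusted p from 0.0792 to 0.124). Stressed minus control was -6.56 points (SE 3.66, limma adjusted p = 0.476) and female minus male 6.77 points (SE 3.66, limma adjusted p = 0.298), and limma called 0% of types in each, with 2 at an unadjusted p under 0.05.

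Cell cycle scores of Meningeal cells were low. Such scores compare genes of DNA replication (S) or of the approach to division (G2/M) with other genes, so values near or below 0 mean no excess of them. The mean S score was -0.00736 and the mean G2/M score -0.0212, 14th and 15th of 17 types. OPC, the dividing precursors of oligodendrocytes, led the S score with 0.0359, and Ependymal cells the G2/M score with 0.0519. Over libraries the Meningeal mean ran from -0.0212 to 0.00472 for S and from -0.0339 to -0.00832 for G2/M, and libraries of the sexes, cohorts and exposures overlapped in both scores.

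**Figure D5:**
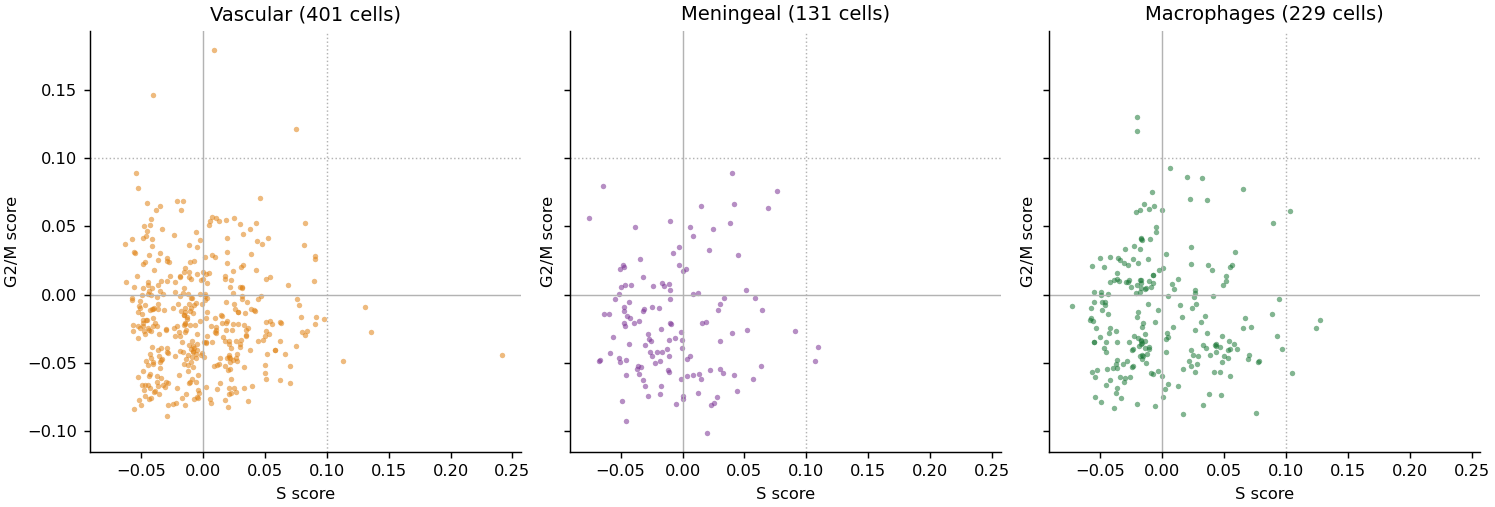
S score (horizontal axis) and G2/M score (vertical axis) of each Vascular cell, Meningeal cell and Macrophage; solid lines mark 0 and dotted lines 0.1. No Meningeal cell exceeds 0.1 on the G2/M axis and 2 exceed it on the S axis.

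Side by side, Vascular cells had means of -0.00136 (S) and -0.0171 (G2/M) and Macrophages -0.000141 and -0.0152. As the scores are sums over genes of the same cells that were annotated, and as types differ in depth, these are descriptions without a test. Single-cell counts for thinning to 1 depth were not analysed here. In cells of 1500 to 3500 UMIs, the means were -0.00910 and -0.0261 for Meningeal cells, -0.000817 and -0.0172 for Vascular cells, and 0.00155 and -0.0193 for Macrophages.

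High scores were rare. Of 131 Meningeal cells 2 had a score above 0.1 (1.53%, interval 0.185 to 5.41), against 7 Vascular cells (1.75%), 6 Macrophages (2.62%) and 4.12% of all cells; 0.1 was chosen after the scores were seen. The highest S scores were 0.109 in a female baseline ARS cell and 0.107 in a male baseline control cell, and both had a G2/M score below 0. The highest G2/M score was 0.0888. Both scores were above 0 in 16 Meningeal cells (12.2%), 49 Vascular cells (12.2%) and 26 Macrophages (11.4%). Across the 131 cells S and G2/M scores had a Spearman correlation of -0.0227 with each other and of 0.102 and -0.0185 with UMIs, as a description, since the scores share the cells' reads and depth.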

How the data were processed

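The authors ran Cell Ranger 3.0.2 and 3.1.0 against mm10 and Seurat 3.1.3, per the submitters' processing notes. Their deposited table holds UMI and gene counts per cell as whole numbers, a mitochondrial fraction (turned into percent here), and doublet, S and G2/M scores from tools not given in the sources used here. Doublets were not removed here. Cells were joined to libraries by cell name (0 unmapped), with the experiment named for acute restraint alone taken as the baseline cohort. The members, comparison types and tests were chosen with earlier results of these data known; no gene was named by its values.

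Numbers of cells per type (at least 80 cells) were tested with the quasi-likelihood test of edgeR 4.0.16 in R 4.3.3, and library medians (types with 10 or more cells per library) with limma 3.58.1, on all 8 libraries with sex, cohort and exposure as terms. Benjamini-Hochberg adjustment ran over types, with a threshold of 0.05. For interactions of shares the edgeR prior was infinite, so their SEs rest on spread pooled over types. In the fits of shares by sex, cohort or exposure the prior had 71.9 degrees of freedom, and in those of log2 genes 146. The SEs of these fits, and so the calls for genes per Meningeal cell, also rest largely on pooled spread. For the percentages of zero scores, fitted by limma without weights, the prior had 6.03 degrees of freedom, so those SEs rest on it in part. Expected genes came from a quadratic fit of log2 genes on log2 UMIs in each library. Types were compared within libraries by exact sign-flip permutation (scipy 1.17.1). Tests were checked on simulated data. Alternatives included DESeq2 1.42.0. The window of 1500 to 3500 UMIs was chosen after seeing the data.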

Additional observations from a re-analysis of the deposited data

Results flagged for a closer look

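Among the 46 sets of libraries examined for 1 library far from the rest, 2 had one by Dixon's 95% critical value, a limit that chance passes in about 1 in 20 sets. In the male CMS ARS library Meningeal cells made up 0.369% of cells, against 0.264% to 0.281% in the other 3 CMS libraries. In the same library 84.6% of Meningeal cells had a doublet score of 0, against 100% in each of the other 3, and this is 2 scored cells of 13. With the other 3 tied at the limit of 100%, any lower value in this library would be flagged. The rate of 1 in 20 therefore does not hold for this flag. Leaving out this library turned the Meningeal log2 fold of stressed against control from 0.10 to -0.05.

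Stressed libraries had higher median UMIs per Meningeal cell than their controls in both baseline pairs and lower median UMIs in both CMS pairs. In the CMS pairs the stressed mice had chronic stress as well as restraint and the controls had neither. Restraint and chronic stress therefore cannot be told apart there. The cohort by stress term for log2 UMIs was -0.37 (SE 0.21, limma adjusted p = 0.524, unadjusted p = 0.0965), a test added after the data were seen and 1 of 12 interactions looked at. The cohort by stress term for log2 UMIs passed the threshold without the female CMS control library (-0.55, limma adjusted p = 0.0343). In the CMS female pair the medians were 1676 and 1654, a gap of few UMIs.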

How the results depend on the processing

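The rare cells set the limits: libraries held 10 to 31 Meningeal cells, so 1 cell moves a library's zero-score share by up to 10 points. With 1 library a combination, nothing measures the spread between like libraries. For conditions, no analysis paired by replicate was possible because the labels give no replicate numbers to block on. The terms for sex, cohort and exposure match the libraries instead. Types were compared in pairs within libraries. Over 31 results, 124 of 158 values under other settings and 199 of 248 with 1 library left out kept direction and side of the threshold. Most of these results were not called in the main analysis, and for them staying uncalled counts as kept. These counts therefore do not measure how stable the called differences are. Medians without score-0 cells could not be given, since some libraries keep no Meningeal cell. The cause of the changes below was not tested.

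Leaving out cells of doublet score 0 keeps 15 Meningeal cells, 2 of them CMS, and 3 CMS libraries hold 0, so the fitted folds say nothing about stability: they were -0.35 for female against male, -1.24 for sex by stress, 3.17 for cohort by stress and -2.24 for CMS against baseline, the last restating the cohort difference in zero scores. With vascular and stromal cells as denominator, cohort by stress was -0.050. With library means, stressed minus control in log2 UMIs was -0.0030, the cohort difference in genes beyond those expected was 0.00062, and the UMI differences by sex (-0.44) and cohort (-0.35) passed limma's threshold. Without cells under 1000 UMIs, stressed minus control in log2 genes was -0.020, and female minus male was -0.15. The sex difference in genes was also not called with a trend and robust prior (-0.26), without covariates (-0.26) or relative to all cells of the library (-0.16). The cohort difference in genes was not called under the same 3 settings (-0.23, -0.23 and -0.073), nor that in zero scores without covariates (13.5 points). The mitochondrial difference from Macrophages was 0.303 points with library means, and the zero-score difference 20.1 points within 1500 to 3500 UMIs, neither past the threshold.

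Within 1 cohort the exact test cannot go below 0.125. Against Vascular cells, the baseline and CMS values were -0.25 and -0.46 for log2 UMIs, 0.13 and 0.13 for genes beyond those expected, -1.59 and -2.20 points for mitochondrial share and 60.2 and 65.2 points for zero scores. Against Macrophages they were 0.22 and 0.29 for log2 genes, 0.20 and 0.16 for genes beyond those expected, 0.278 and 0.666 points for mitochondrial share, and 17.7 and 16.5 points for zero scores.

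With 1 library left out, log2 folds of the share ran from -0.066 to 0.31 for stress, -0.059 to 0.37 for sex, -0.39 to 0.76 for sex by stress and -0.074 to 0.89 for cohort by stress. Log2 UMIs ran from -0.025 to 0.18 for stress, -0.47 to -0.26 for sex, -0.41 to -0.21 for cohort and -0.55 to -0.19 for cohort by stress. Log2 genes ran from -0.022 to 0.15 for stress, -0.34 to -0.17 for sex and -0.32 to -0.15 for cohort, and beyond those expected from -0.00105 to 0.041 for stress and -0.021 to 0.020 for cohort. Mitochondrial shares ran from -0.00374 to 0.398 points for stress and -0.295 to 0.0813 for sex, and zero scores from 10.9 to 16.0 points for cohort. Against Macrophages the ranges were 0.22 to 0.30 for log2 genes, 0.374 to 0.556 points for mitochondrial share and 14.6 to 20.8 points for zero scores. With 7 libraries the exact test cannot go below 0.0156.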

Other observations

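The highest doublet score among Meningeal cells, 3.97, was held by 3 of them. Exactly the same value was given to 226 cells in the whole table, from all 8 libraries and all 17 types, and 10 cells had a higher score. The 26010 scores above 0 take 15219 distinct values. Equal scores in different libraries are listed here as a property of the deposited column, made with a tool not given in the sources used here.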
